A study of Homo sapiens with 4 samples.

Results

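The MYC, MAX and MXD network is a set of transcription factors that pair with one another through a shared basic helix-loop-helix leucine zipper. The 10 members described here were chosen by name: MYC, MYCL, MYCN, MAX, MXD1, MXD3, MXD4, MXI1, MNT and MGA. All 10 were among the 60544 genes of the count table, and 9 passed the filter on low counts. RNA came from PC3, an established human prostate cancer cell line, grown in RPMI-1640 with fetal bovine serum. Control cells carried the label shNC and knockdown cells the label sh812, with 2 libraries each. The series names METTL3, the catalytic subunit of the enzyme that writes N6-methyladenosine (m6A) on messenger RNA, as the target. The labels describe no second shRNA against METTL3, no rescue, and no statement that replicates came from separate cultures, so p-values measure the spread between these libraries, which may be technical.

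In this network MYC proteins bind DNA only when paired with MAX, usually at the E-box CACGTG, and raise transcription of genes for ribosome assembly, metabolism and cell division. MXD1, MXD3, MXD4, MXI1 and MNT compete for MAX and recruit SIN3 and histone deacetylases to the same sites, and MGA carries MAX into a Polycomb complex that silences germline genes. MYC is a much studied oncogene in prostate cancer, where its locus is often gained, and has been reported as a transcript acted on by METTL3.

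Total counts ran from 31450648 to 37041330 per library, and levels are given as CPM, reads scaled to a common library total with trimmed mean of M-values (TMM) factors. METTL3 had 44.35 and 43.61 CPM in shNC and 7.66 and 8.75 CPM in sh812, which is -2.42 on the log2 scale (SE 0.106, adjusted p = 5.54e-14 in edgeR). METTL3 shares 388 exon bases with TOX4 on the opposite strand, which had 3297 to 3831 counts per library. Among markers of the cell line, KRT8, KRT18, KRT19, EPCAM and CDH1 together held 816 to 921 CPM in shNC and 956 to 1020 CPM in sh812. In edgeR 3 of the 5 were called higher, beside 5.43% of all tested genes. The prostate-specific KLK3 and KLK2 had no count, and the 5 immune markers together held at most 1.13 CPM. Neuroendocrine markers summed to at most 0.838 CPM. Endothelial genes, nearly all PECAM1 and KDR, summed to 41.6 to 42.6 CPM in shNC and 44.0 to 50.4 CPM in sh812, with CDH5 and VWF at 0 to 6 counts. PECAM1 rose by 0.59 and KDR fell by 0.69 on the log2 scale (adjusted p = 0.000222 and 0.000343 in edgeR). Fibroblast genes summed to 52.1 to 54.0 CPM in shNC and 47.7 to 53.8 CPM in sh812. Of these 5, 1 was called higher, COL1A2 (0.50, adjusted p = 0.0116 in edgeR), beside the same 5.43% of all tested genes. Fitted values were positive for 2 of them and negative for 3, among these COL1A1 (-0.27, adjusted p = 0.0589 in edgeR). The part of these groups in the results on the network was not tested.

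MYC was the only member called, and it rose. It had 167.1 and 166.5 CPM in the shNC libraries and 216.4 and 222.7 CPM in the sh812 libraries. Both knockdown libraries lay above both controls, and the gap between groups was several times the distance between replicates. The fitted change was 1.32-fold, a log2 fold change of 0.40 (SE 0.0589, 95% interval 0.27 to 0.52, edgeR adjusted p = 7.7e-05, corrected over all genes tested). MYC (ENSG00000136997) lies on the plus strand of chromosome 8 from 127735434 to 127741434 in GENCODE 29, and no other annotated gene shares exon bases with it. It ranked 116 among 16802 tested genes by p-value. Its change ran from 0.35 to 0.40 over 10 alternative settings, and from 0.38 to 0.42 when any 1 library was left out, with an adjusted p under 0.05 in each of these 14 fits.

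In edgeR, 1 of the 9 tested members was called higher and 0 lower at an adjusted p under 0.05. On the lower side 0 members reached an unadjusted p under 0.05, and DESeq2 and limma-voom called 0. The background over all tested genes was 10.8% called, made up of 5.43% higher and 5.42% lower, and the members' share of called genes was near that of the table as a whole. The libraries of the groups did not overlap for 3 members on the higher side (MYC, MAX and MXD3) and for 4 on the lower side (MYCL, MXD1, MNT and MGA). Such separation was shown by 53.6% of all tested genes, 26.2% higher and 27.4% lower. The median log2 fold change of the 9 was -0.118, beside -0.00563 over all tested genes.

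**Figure D1:**
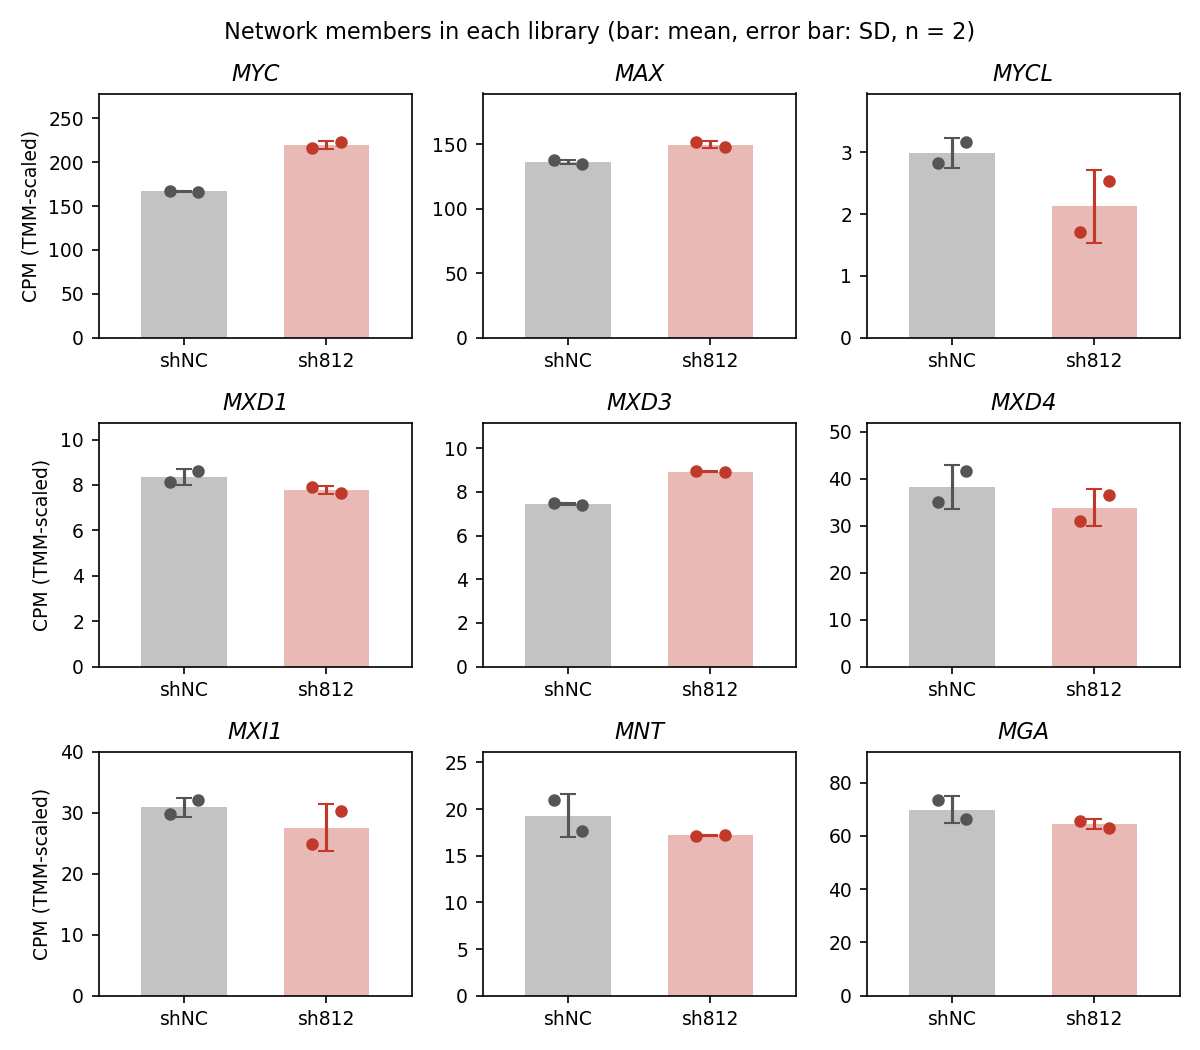
Level of each tested member in CPM (TMM-scaled, linear axis from 0) in the 2 shNC and 2 sh812 libraries; points are libraries, bars means and error bars SD. The MYC libraries stand at 167.1 and 166.5 CPM in shNC against 216.4 and 222.7 CPM in sh812, whereas in most other panels the distance between groups is close to that between replicates.

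The other MYC family genes were scarcely expressed. MYCL, the paralog first found in small cell lung cancer, had 107 and 100 counts in shNC and 60 and 91 counts in sh812, or 2.82, 3.16, 1.71 and 2.54 CPM. Both sh812 values were below both controls, but they were further from each other than the higher of them was from the nearest control. The log2 fold change was -0.49 (SE 0.27, 95% interval -1.05 to 0.069, adjusted p = 0.274 in edgeR). Dropping the first sh812 library gave -0.23 and dropping the second gave -0.80. MYCN, the neuroblastoma and neuroendocrine paralog, had 0 counts in every library, which allows at most 0.0791 to 0.0949 CPM at 3 counts per library. Its antisense neighbour MYCNOS also had no count.

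MAX, the shared partner in the network, was abundant and did not pass the test. It had 137.4 and 134.9 CPM in shNC and 151.4 and 148.0 CPM in sh812. The sh812 libraries were both higher, with a log2 fold change of 0.14 (SE 0.0605, 95% interval 0.012 to 0.26, unadjusted p = 0.0326, adjusted p = 0.155 in edgeR). Scaling by library size and no TMM factor gave 0.092. The upper end of its interval, 0.26, lay below the fitted 0.40 of MYC, but the difference between MAX and MYC was not tested.

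The MAX-binding repressors gave no call in either direction. MXD4, a repressor linked to differentiation, had 34.96 and 41.55 CPM in shNC and 31.05 and 36.58 CPM in sh812. The groups overlapped, since replicate 2 was the higher library in each, and the log2 fold change was -0.18 (SE 0.0976, 95% interval -0.38 to 0.026, adjusted p = 0.277 in edgeR). Without shNC replicate 1 the value was -0.30 and passed (adjusted p = 0.0239), and without shNC replicate 2 it was -0.043. MXI1, a member of the same repressor group encoded on chromosome 10, had 29.79 and 32.03 CPM in shNC and 24.81 and 30.29 CPM in sh812. Here too the groups overlapped, with a log2 fold change of -0.16 (SE 0.101, 95% interval -0.37 to 0.043, adjusted p = 0.327 in edgeR) that moved to -0.029 when the first sh812 library was dropped and to -0.32 when the second was.

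MXD1, the first described antagonist and a marker of terminal differentiation in several tissues, had 8.12 and 8.60 CPM in shNC and 7.92 and 7.66 CPM in sh812, a log2 fold change of -0.10 (edgeR SE 0.146, adjusted p = 0.735). MXD3, which unlike its relatives is expressed in dividing cells during S phase, had 7.49 and 7.40 CPM in shNC and 8.95 and 8.91 CPM in sh812. Its replicates lay close together and its log2 fold change was 0.26 (SE 0.145, 95% interval -0.036 to 0.56, adjusted p = 0.272 in edgeR). These counts of 234 to 319 reads per library leave an interval wide enough to hold a change as large as that of MYC. MXD3 shares 1158 exon bases with PRELID1 on the opposite strand and 926 with RAB24, and MXD1 shares 237 with SNRNP27. PRELID1 had 4934 to 5974 counts per library. Whether counting used strand is not given in the sources used here, so reads over these stretches cannot be assigned with certainty.

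MNT, the widely expressed repressor that holds MAX in both resting and dividing cells, had 20.93 and 17.64 CPM in shNC and 17.12 and 17.21 CPM in sh812. The second control library was close to the knockdown libraries and far from its own replicate, and the log2 fold change of -0.17 (edgeR SE 0.113, adjusted p = 0.374) became -0.041 when the first shNC library was dropped and -0.28 when the second was. MGA, the large scaffold protein that pairs with MAX, had 73.35 and 66.37 CPM in shNC and 65.75 and 63.04 CPM in sh812, a log2 fold change of -0.12 (edgeR SE 0.0734, adjusted p = 0.337). Without shNC replicate 1 it was -0.045. MGA has the longest exon sequence of the members, 17651 bases, and the trend fitted over all genes at its length and GC content was -0.0913. After that trend was taken out its log2 fold change was -0.025, while that of MYC, with 3001 exon bases, was 0.35 (adjusted p = 0.000178 in edgeR).

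**Figure D2:**
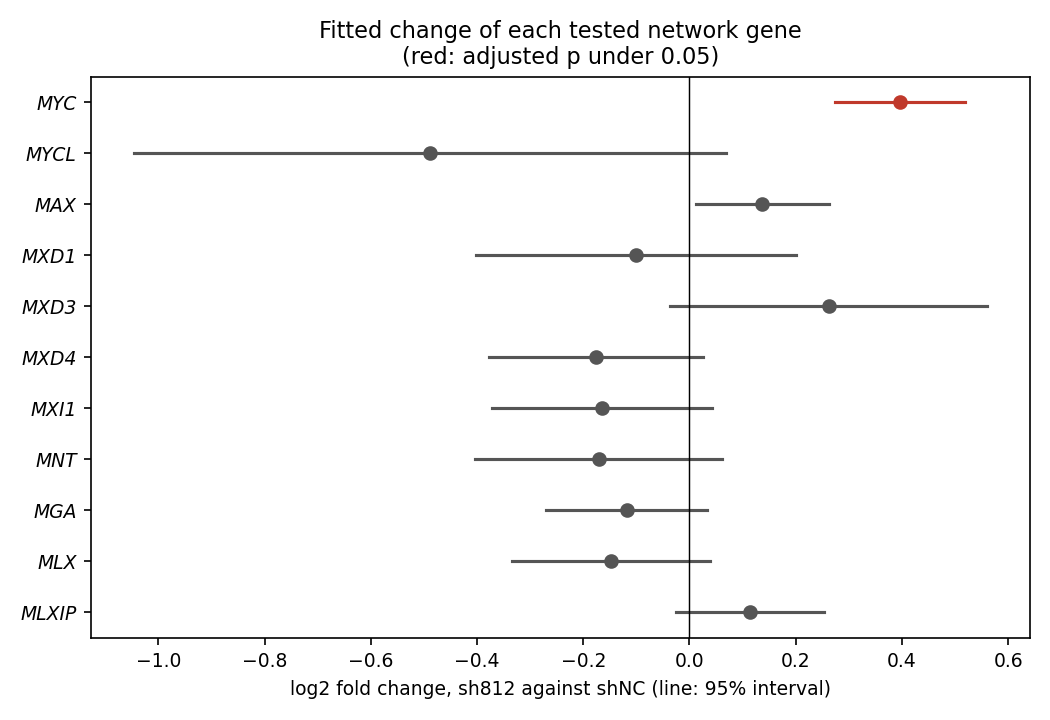
Fitted log2 fold change of sh812 against shNC (x axis) for the 9 tested members and for MLX and MLXIP, with 95% intervals as lines; red marks an adjusted p under 0.05. MYC at 0.40 is the only red point, and the intervals of MYC and MAX are the only ones that leave out 0.

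Fitted changes were negative for 6 members, namely MYCL, MXD1, MXD4, MXI1, MNT and MGA, and each kept that sign under all 14 alternatives. These are values below the test's threshold and not called decreases. Each of the 6 was fitted on the same 4 libraries.

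Levels of different genes were compared only per kilobase of annotated exon (RPKM, from TMM-scaled CPM). MYC stood highest, at 55.69 and 55.49 RPKM in shNC and 72.13 and 74.21 RPKM in sh812. MAX came next, at 31.01 and 30.44 RPKM in shNC and 34.17 and 33.42 RPKM in sh812. All repressors were far lower: MXI1 spanned 5.39 to 6.95 RPKM and MXD4 4.40 to 5.89 RPKM over the 4 libraries, so these neighbours overlapped. MGA at 3.57 to 4.16, MNT at 1.96 to 2.40, MXD3 at 1.44 to 1.74 and MXD1 at 1.21 to 1.35 RPKM followed without overlap, and MYCL was lowest among members with counts, at 0.34 to 0.62 RPKM. Lengths are unions of all annotated exons and can understate genes whose longer isoforms are unused.

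The ratio of MYC to MAX by RPKM was 1.80 and 1.82 in shNC and 2.11 and 2.22 in sh812. The ratio of MYC to the summed RPKM of MXD1, MXD3, MXD4, MXI1, MNT and MGA was 2.69 and 2.59 in shNC and 3.91 and 3.67 in sh812. Both ratios were higher in both knockdown libraries, with no overlap. MYC made up 51.6% and 51.4% of the summed RPKM of all members in shNC and 57.7% and 57.8% in sh812. These ratios restate the values above, carry no test of their own, and describe RNA, not protein.

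**Figure D3:**
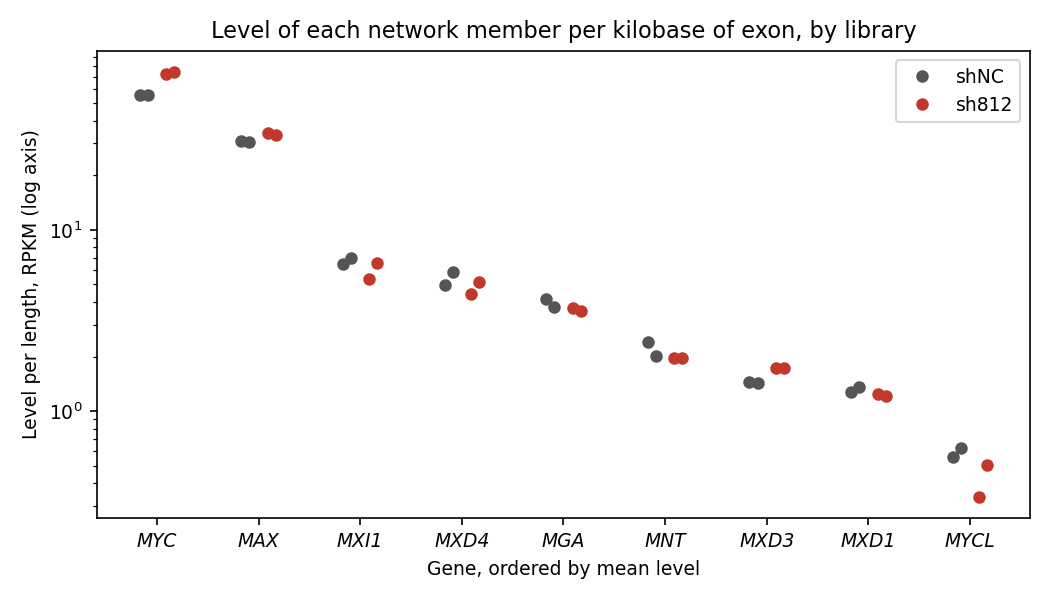
Level per kilobase of exon (RPKM, log axis) of each member with counts, in order of mean level, for the 2 shNC and 2 sh812 libraries. MYC at 55.49 to 74.21 RPKM and MAX at 30.44 to 34.17 RPKM stand above every repressor, of which the highest value is 6.95 RPKM for MXI1.

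The rest of the extended network is the branch that pairs with MLX and senses glucose. MLX, which takes the place of MAX there, was at -0.15 on the log2 scale (SE 0.0906, adjusted p = 0.33 in edgeR), and its partner MLXIP, also called MondoA, one of 0.11 (SE 0.0678, adjusted p = 0.313 in edgeR). MLXIPL, or ChREBP, had 0 to 6 counts per library and was not tested. Of the standard MondoA targets, the arrestin gene ARRDC4 dropped in sh812 to 7.67 ± 0.215 CPM against 11.4 ± 0.0639 CPM in shNC (SD, n = 2), or -0.57 in log2 (SE 0.137, edgeR adjusted p = 0.00815). Without either sh812 library it was no longer called. TXNIP, the other standard target, had a log2 fold change of -0.060 (adjusted p = 0.636 in edgeR).

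Among genes that MYC is known to activate, more were called higher than lower. These lists were written from general knowledge with earlier results of the same libraries known, so their counts are a description. In the ribosome biogenesis list 9 of 38 tested genes were called higher and 0 lower in edgeR, beside 5.43% and 5.42% of all genes. DESeq2 and limma-voom also called 0 lower, and 0 reached an unadjusted p under 0.05 on that side. The median log2 fold change was 0.134 against -0.00563 over all genes. Fitted values were positive for 35 of the 38. FBL, the methyltransferase fibrillarin, rose from 214.3 ± 4.99 to 274.5 ± 9.09 CPM (SD, n = 2), a log2 fold change of 0.36 (edgeR SE 0.0588, adjusted p = 0.000245). The pseudouridine synthase PUS1 (log2 fold change 0.35), the large-subunit assembly factor BOP1 (0.24), the growth-regulated factor PA2G4 (0.24) and nucleophosmin NPM1 (0.21) had the next smallest p-values, with adjusted p from 0.0043 to 0.0115 in edgeR.

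In the metabolism and cell cycle list 12 of 46 tested genes were called higher and 2 lower in edgeR, beside 5.43% and 5.42% of all genes. The median log2 fold change was 0.121, against -0.00563 over all genes. The mitochondrial chaperone HSPD1 rose from 1531 ± 34.7 to 1880 ± 116 CPM (SD, n = 2), a log2 fold change of 0.30 (edgeR SE 0.0564, adjusted p = 0.00119). IMPDH2, the rate-limiting enzyme of guanine nucleotide synthesis, rose by 0.28 on the log2 scale, and so did PHB, a mitochondrial scaffold protein. PTMA, a chromatin-associated acidic protein, rose by 0.27 and GART, a purine synthesis enzyme, by 0.25. The called decreases were CTPS1, the CTP synthase (log2 fold change -0.28, adjusted p = 0.00644 in edgeR), and ID2, an inhibitor of helix-loop-helix factors (-0.45, adjusted p = 0.00971 in edgeR). NPM1, PTMA and HSPD1 have processed pseudogenes of near-identical sequence, so their counts are uncertain. Exon overlaps with other genes were not looked up for this list or the ribosome biogenesis list. Some counts were low: HSPE1 had 24.91 to 36.15 CPM, EIF4A1 1.03 to 1.52 CPM and NOP2, of the ribosome biogenesis list, 0.24 to 0.41 CPM. Whether reads of these genes were lost to overlapping genes was not tested.

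Genes that MYC is known to repress leaned the other way. Of 15 tested, 0 were called higher and 3 lower in edgeR, beside 5.43% and 5.42% of all genes, and 12 fitted values were negative, with a median log2 fold change of -0.181. On the higher side 0 genes reached an unadjusted p under 0.05, and DESeq2 and limma-voom called 0; on the lower side they called 2 and 4. ITGB1, integrin beta 1, fell to 1915 ± 6.43 CPM in sh812 against 2837 ± 122 CPM in shNC (SD, n = 2), a log2 fold change of -0.57 (edgeR SE 0.0541, adjusted p = 9.97e-08). The matrix glycoprotein THBS1 fell by 0.25 and the cell cycle inhibitor CDKN2B by 0.23 on the log2 scale, with adjusted p of 0.0059 and 0.0399 in edgeR.

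The size of the called groups depended on the library left out, and the medians less so. Without sh812 replicate 1, 0 ribosome biogenesis genes and 0 metabolism and cell cycle genes were called higher, and without sh812 replicate 2, 1 in each list was. In those fits the whole table also shrank, to 130 and 152 genes called higher against 912. Without shNC replicate 2, 15 and 21 were called higher, 1 ribosome biogenesis gene was called lower and 1 gene of the repressed list was called higher. The repressed list had 1 gene called lower without either sh812 library and 5 without either shNC library. Over all 14 alternatives the medians ran from 0.0895 to 0.175 (ribosome biogenesis), 0.0769 to 0.157 (metabolism and cell cycle) and -0.226 to -0.145 (repressed). With library size alone, 5 ribosome biogenesis genes were called higher and 6 repressed genes lower.

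**Figure D4:**
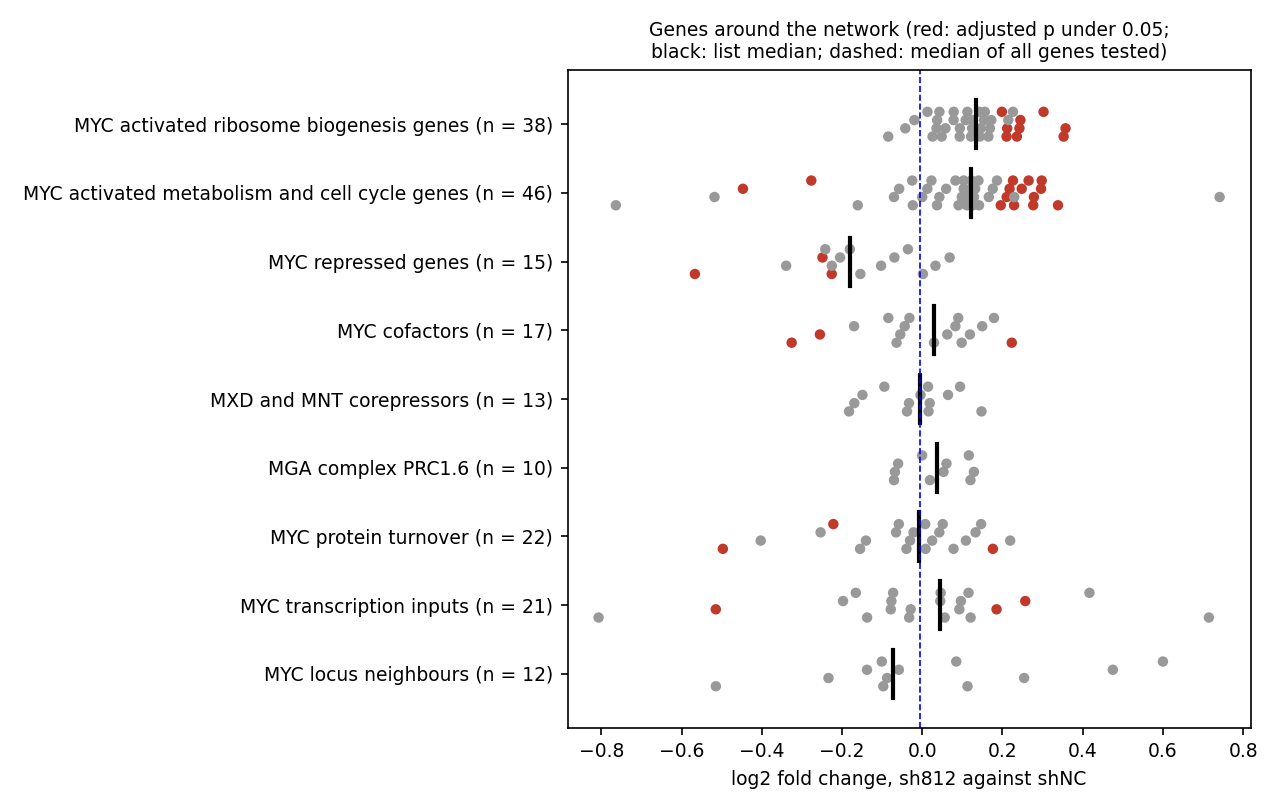
Log2 fold change of sh812 against shNC (x axis) for each tested gene of 9 lists around the network; red points have an adjusted p under 0.05, black bars are list medians and the dashed line is the median of all tested genes, -0.00563. The lists of genes activated by MYC have medians of 0.134 and 0.121, and the list of genes repressed by MYC has one of -0.181.

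The E-box CACGTG, which reads the same on both strands, was searched in RefSeq promoter windows (build GRCh38.p14, 250 bases before to 50 after each annotated start). Of 27305 genes with a window, 8.77% held it. Of the 9 members with a window 2 did, MXD4 and MNT, and MLX held it as well; the promoter of MYC was not searched here. The motif was in 16 of 31 genes with a window in the ribosome biogenesis list (51.6%) and in 16 of 39 in the metabolism and cell cycle list (41.0%). It was also in 6 of 12 germline genes silenced by the MGA complex (50.0%), 2 of 5 genes of the MLX branch (40.0%), 4 of 12 cofactors (33.3%) and 3 of 12 repressed genes (25.0%). Shares were lower for factors that feed into MYC transcription (4 of 18, 22.2%) and genes of MYC protein turnover (3 of 17, 17.6%). The MGA Polycomb complex (1 of 10, 10.0%) and the MXD and MNT corepressors (1 of 12, 8.3%) were near all genes. Antisense and near copies of the members had it in 0 of 5. Of the genes called higher and with a window, 4 of 6 in the ribosome biogenesis list and 5 of 9 in the metabolism and cell cycle list held it. A match is a description of the letters and does not show binding.

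The windows printed next show the motif in repressors of the network, in MLX and in genes that rose, with the motif in capitals and 12 bases on each side, each 5′ to 3′ along the gene's own strand. They were chosen after the values were seen. MXD4 (chr4:2262330-2262359, minus strand) has it 238 bases before the start and MNT (chr17:2401236-2401265, minus) 193 before. MLX (chr17:42567038-42567067, plus) has it 50 before. FBL (chr19:39846356-39846385, minus) has it 6 bases and PES1, a large-subunit assembly factor (chr22:30591880-30591909, minus), 13 bases after the start. SRM, spermidine synthase (chr1:11060200-11060229, minus), has it 199 before. CDK4, the G1 kinase, has 3 in its window, of which that nearest the start is shown (chr12:57752394-57752423, minus, 101 before). HSPE1 (chr2:197500345-197500374, plus) and HSPD1 are transcribed away from each other and share a single motif, 22 bases before the HSPE1 start and 88 before that of HSPD1.
MXD4: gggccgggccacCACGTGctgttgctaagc
MNT: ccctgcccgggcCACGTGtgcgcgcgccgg
MLX: gcgggcgcgggtCACGTGggcacgccaccc
FBL: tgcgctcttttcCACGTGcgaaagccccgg
PES1: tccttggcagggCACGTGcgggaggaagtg
SRM: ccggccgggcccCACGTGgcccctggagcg
CDK4: atgggtggcggtCACGTGcccagaacgtcc
HSPE1: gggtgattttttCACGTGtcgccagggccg

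CDK4 rose by 0.22, SRM by 0.23, PES1 by 0.20 and HSPE1 by 0.34 on the log2 scale, with adjusted p-values of 0.0306, 0.0245, 0.0325 and 0.0279 in edgeR, whereas MXD4, MNT and MLX had fitted values of -0.18, -0.17 and -0.15 that did not pass. The same motif stood in genes that rose and in genes that were not called.

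Of 17 tested MYC cofactors, 1 was called higher and 2 lower, or 17.6% beside 10.8% of all genes. The ATPase RUVBL2 rose by 0.22 on the log2 scale (adjusted p = 0.0196 in edgeR). The methyltransferase KMT2D fell by 0.33 and the chromatin remodeller BPTF by 0.26 (adjusted p = 0.012 and 0.0488 in edgeR). Both are long, with 20485 and 15098 exon bases, and the length and GC trend was not taken out of these values. Their controls differed, at 89.64 and 71.84 CPM for KMT2D and 117 and 91.64 CPM for BPTF. The higher sh812 library had 65.83 CPM for KMT2D and 90.45 CPM for BPTF. Without shNC replicate 2, 4 cofactors were called lower and 2 higher, without shNC replicate 1 there were 0 lower, and without either sh812 library 0 in either direction. Of 13 tested corepressor genes of MXD and MNT, such as SIN3A and HDAC1, 0 were called by edgeR, DESeq2 or limma-voom, 2 had an unadjusted p under 0.05, and the median log2 fold change was -0.00455. Without shNC replicate 2, 3 of them were called lower, and without shNC replicate 1, 1 higher. Of the 10 genes of the MGA Polycomb complex 0 were called by any of these tools and 0 had an unadjusted p under 0.05 in edgeR, with a median of 0.036.

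Germline genes that the MGA complex silences were scarcely detected. Only 3 of 12 passed the low-count filter, and 1 of these was called lower, beside 5.42% of all tested genes. It was the meiotic cohesin STAG3, at 48 and 48 counts in shNC and 15 and 22 in sh812 (adjusted p = 0.049 in edgeR). Its mean level was under 1 CPM, and it was named after its values were seen. DESeq2 and limma-voom did not call it, nor did edgeR when any 1 library was left out. MAEL, TDRD1, SLC25A31 and TEX101 had no count in any library.

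Of 22 tested genes that act on MYC protein stability, 1 was called higher and 2 lower, a share of 13.6% near the 10.8% of all genes. SET, an inhibitor of the phosphatase PP2A, was called higher by 0.18 on the log2 scale. The deubiquitinases USP37 and USP36, which remove ubiquitin from MYC, fell by 0.50 and 0.22, with adjusted p of 0.00838 and 0.0296 in edgeR, and the list's median was -0.0073. Among 21 factors that feed into MYC transcription, 2 were called higher and 1 lower, a share of 14.3%, also near that of all genes. The nucleic acid-binding protein CNBP (log2 fold change 0.19) and NME1 (0.26) were called higher, and the Mediator subunit MED1 lower (-0.51, adjusted p = 0.000208 in edgeR). Leaving out a control library left 2 to 5 turnover genes called lower and 2 to 3 higher, and leaving out either sh812 library left 0. MED1 was the gene of the inputs with the smallest p, and 0 inputs were called higher without shNC replicate 1 or without either sh812 library.

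Of 12 tested neighbours of MYC on the long arm of chromosome 8, 0 passed in edgeR, DESeq2 or limma-voom, beside 10.8% of all genes called in edgeR, 2 had an unadjusted p under 0.05, and their median log2 fold change was -0.0732. PVT1, the long noncoding RNA next to MYC, had 17.16 and 15.27 CPM in shNC and 19.29 and 15.84 CPM in sh812, a log2 fold change of 0.11 (SE 0.12, 95% interval -0.13 to 0.36, adjusted p = 0.623 in edgeR). That interval overlaps the interval of MYC, and the difference between the genes was not tested. The noncoding RNA CASC8, named after its values were seen, had the smallest p of the list, with a log2 fold change of 0.48 (adjusted p = 0.0548 in edgeR). Leaving out shNC replicate 1 gave 1 neighbour called higher, and leaving out shNC replicate 2 gave 2 called lower. With no low-count filter 1 was called higher, as with the replicate block, and with the block and the length and GC trend removed 2 were.

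The writer complex marks adenosines most often in the sequence GGACT of the transcript's DNA letters. The longest GENCODE 29 transcript of MYC held 4 such sites, 1.69 per kilobase. MXD3 had 3.07 per kilobase, MYCL 1.84, MNT 1.40, MYCN 1.15 and MAX 0.95. Lower values were those of MXD4 (0.71), MGA (0.62), MXI1 (0.58) and MXD1 (0.36). The median over 19922 protein-coding genes was 0.93, with quartiles of 0.55 and 1.39. Values above the upper quartile were thus found in members with positive fitted changes (MYC and MXD3) and negative ones (MYCL and MNT). No m6A was measured here, so these are counts of letters only.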

How the data were processed

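Per the labels' protocols, poly(A) RNA was made into dUTP-marked libraries and read as pairs of 150 bases. The authors deposited raw read counts per gene; the submitters' processing notes name fastp, STAR 2.7.1a, featureCounts, DESeq2 and the build hg38, without roles, and the strand setting and annotation release are not given in the sources used here. Counts were fitted in edgeR 4.0.16 (R 4.3.3) with filterByExpr, TMM scaling and the quasi-likelihood test on all 4 libraries, which kept 16802 genes; p-values were adjusted by Benjamini-Hochberg over these, with a threshold of 0.05. SE and intervals come from the F statistic. The intervals include the spread between libraries, while limits for counts of 0 cover counting error only. Replicates differed beyond sampling noise (chi-square per gene 8.43 in shNC and 4.51 in sh812). Positions are from GENCODE 29 by Ensembl identifier, promoter windows from RefSeq by symbol.

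The members and gene lists were chosen with earlier results of these data known. The text names all members, MLX, MLXIP, MLXIPL, METTL3 and, per list and direction, up to 5 called genes of at least 1 CPM with the smallest p, with others marked or shown for their motif or as list examples. Of 248 list entries, 12 were not matched by name and were not analysed here, of which FAM49B, FAM84B and PHB1 are other names of entries that were matched. MYCBP and MYCBP2, listed with antisense and near copies of the members, were not called. Alternatives were other scalings, filters, DESeq2 1.42.0, limma-voom (limma 3.58.1), the replicate block, removal of length and GC trends (lowess span 0.3) and each library left out. In simulated sh812 and shNC counts 200 genes were changed and 16441 were tested. There edgeR found 71.4% of the true changes at log2 1 and 51% at log2 0.5, and 8 of its 128 calls were false. A further marker set is not reported here.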

Additional observations from a re-analysis of the deposited data

How the results depend on the processing

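MYC kept its direction and an adjusted p under 0.05 in all 14 alternatives, with adjusted p from 7.2e-11 to 0.0218. The other tested members kept their direction in all 14 and stayed without a call, except MXD4. Leaving out single libraries moved MXD4 from -0.299 to -0.0427, and without shNC replicate 1 it was called lower (-0.298, adjusted p = 0.0239); the count of members called lower then ran from 0 to 1. A group of 1 library is assumed in these fits to vary like the other group; the cause was not tested. The titles number replicates 1 and 2 in both groups without stating a shared day or culture, and deviations of same-numbered libraries correlated at 0.0164 across genes. With the replicate block MYC had a log2 fold change of 0.396 (adjusted p = 2.75e-05), and with the block and the length and GC trend removed 0.353; the block changed no call among the members. All-gene calls were 912 higher and 910 lower in edgeR, and 561 and 1328 with library size alone. Leaving out sh812 replicate 1 gave 130 and 183, sh812 replicate 2 gave 152 and 272, and shNC replicate 2 gave 1743 and 1583. Of the results on the other lists and all genes, 116 moved and 415 did not. In simulated counts 51% of changes of log2 0.5 were called. Only 200 genes, drawn from all levels, were changed there, while 1822 were called in the real libraries. The share that applies to the members may therefore differ. The changes fitted for the repressors were smaller, a size that was not simulated, so such changes can be missed.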
